A study of Mus musculus with 8 samples.

Results

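Carnitine carries fatty acids into the mitochondrion, and the genes described here encode the enzymes and carriers of that shuttle and of the making of carnitine itself. A list of 9 mouse genes was looked up by symbol in a table of 24033 genes: Cpt1a, Cpt1b, Cpt2, Slc25a20, Crat, Crot, Slc22a5, Tmlhe and Aldh9a1. Values were read for 8 of them, and Tmlhe, whose enzyme starts carnitine synthesis from trimethyllysine, was not analysed here. All 8 passed the filter of a mean of at least 1 FPKM that left 12535 genes for testing.

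Long-chain fatty acids cross the inner mitochondrial membrane only as carnitine esters. Carnitine palmitoyltransferase 1 on the outer membrane makes the ester, the translocase Slc25a20 exchanges it for free carnitine, and Cpt2 on the inner membrane turns it back into acyl-CoA for beta-oxidation. Malonyl-CoA inhibits the first step, and Cpt1b is the isoform of muscle while Cpt1a is that of liver and many other tissues. Muscle does not make its own carnitine to any great extent and takes it up from blood through Slc22a5.

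The samples were 4 K15-SKO and 4 MyoCre soleus muscles from mice aged 2 months. The K15-SKO mice had the genotype Myogenin-Cre/+;K15F/F, that is, floxed alleles of Klf15 together with a Cre recombinase expressed under the control of myogenin, and the MyoCre controls had the same Cre alone (Myogenin-Cre/+), so both genotypes carry the recombinase. Myogenin is active in differentiating skeletal muscle cells, and cells of other types in the soleus are not targeted by this Cre. The labels do not say which part of the gene was floxed or whether muscles of several mice were pooled. KLF15 is a Kruppel-like transcription factor with known roles in the use of lipids and amino acids by muscle, liver and heart, and the comparison asks how its deletion changes the transcripts of soleus muscle.

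Klf15 mRNA itself measured 15.7, 19.3, 16.7 and 13.1 FPKM in K15-SKO replicates 1 to 4, against 44.5, 49.8, 49.1 and 22.8 FPKM in MyoCre replicates 1 to 4. FPKM is the number of sequenced fragments scaled to transcript length and library size, so levels of different genes can be set side by side on this scale. Klf15 fell to 38.9% of the MyoCre level (log2 fold change -1.28, SE 0.25, limma adjusted p = 0.0315), and in 13 of 20 alternative fits it no longer passed the threshold of 0.05 (log2 fold changes -1.30 to -1.15, adjusted p up to 0.256). Among these were the fits without K15-SKO replicate 1, 3 or 4 or without MyoCre replicate 1, 2 or 3, and the fit with median-of-ratios scaling (adjusted p = 0.0904). Myh7, the defining myosin of slow fibres, averaged 1385 ± 598.1 FPKM in K15-SKO and 1609 ± 698.3 FPKM in MyoCre muscle (SD, n = 4 each) and ranked 48 among the tested genes. The number of fragments per library, roughly estimated from the smallest values, was 8100000 to 22700000. K15-SKO replicate 3 stood apart with a median-of-ratios scaling factor (the typical ratio of a library's values to the average library) of 0.80, where the rest lay between 0.95 and 1.15. The most deeply sequenced library, MyoCre replicate 2, was also the only one from a male, with a mean of 16.2 FPKM over 4 Y-linked genes against 0 in the other 7.

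The 8 genes fell into a high and a low tier of expression, and the order was the same in both genotypes. Cpt1b, the muscle isoform that commits fatty acids to oxidation, was the highest at 207.4 ± 5.04 FPKM in K15-SKO and 233.1 ± 27.5 FPKM in MyoCre muscle (SD, n = 4 each), which is above 98.8% of all genes in the table. Crat, which moves acetyl groups between CoA and carnitine, came next, followed by Slc25a20 and Cpt2, and in both genotypes the ranges of these 4 neighbours did not overlap. Cpt2 lay 4.67-fold above Crot in K15-SKO and 4.66-fold above it in MyoCre muscle. The low tier held Crot, the peroxisomal carnitine octanoyltransferase, then Slc22a5, the sodium-dependent plasma membrane carnitine transporter, and Cpt1a. The ranges of Crot and Slc22a5 overlapped in both genotypes, as did those of Slc22a5 and Cpt1a. Aldh9a1, the aldehyde dehydrogenase that makes the last precursor of carnitine, gamma-butyrobetaine, was the lowest at 3.39 ± 0.55 FPKM in K15-SKO and 5.20 ± 0.90 FPKM in MyoCre muscle (SD, n = 4 each).

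**Figure D1:**
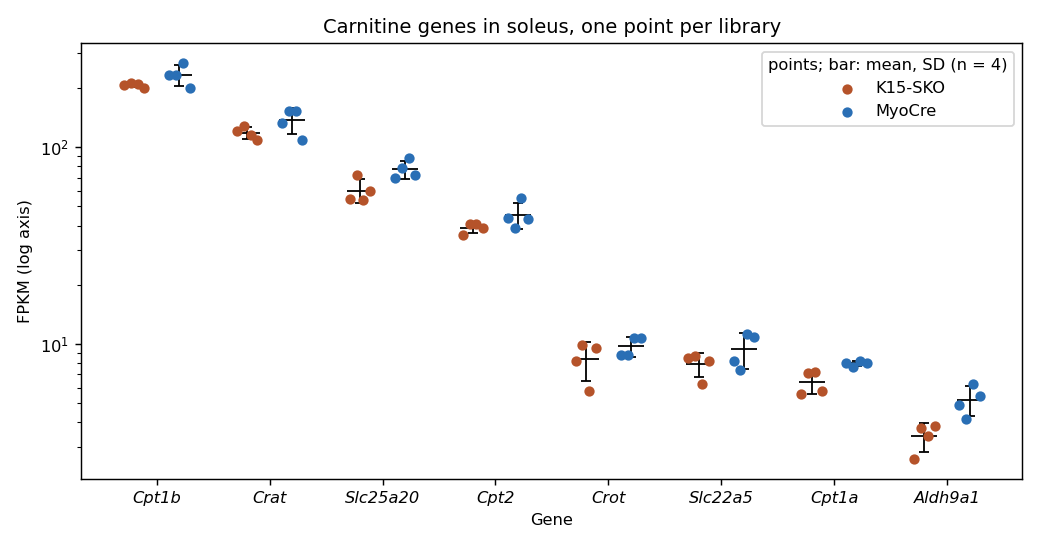
FPKM of the 8 carnitine genes on a log axis, one point per library, with K15-SKO left of MyoCre for each gene; bars show the mean and the SD (n = 4). Cpt1b, Crat, Slc25a20 and Cpt2 form the high tier, and the K15-SKO points of Cpt1a and Aldh9a1 lie below all their MyoCre points.

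No carnitine gene passed the threshold between the genotypes in the fit over all genes, so 0 of 8 were called lower and 0 of 8 higher; 1 of 8 had an unadjusted p under 0.05. Over all tested genes the shares called were 0.183% lower and 0.367% higher (0.55% in all), 4.33% had an unadjusted p under 0.05, and all 46 genes called higher were listed at 0 in all 4 MyoCre libraries. The 8 log2 fold changes ran from -0.55 to -0.16 with standard errors of 0.16 to 0.20. All 8 were negative, but so were those of 77.0% of all tested genes, whose median was -0.12. The median of the 8 was -0.23, or 0.11 below that of all genes, and all 8 lay below the all-gene median, which 50.0% of genes do by construction. With libraries rescaled by median-of-ratios factors the median of all genes became 0.00 and that of the 8 became -0.10, with all 8 still negative, beside 49.7% of all genes.

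**Figure D2:**
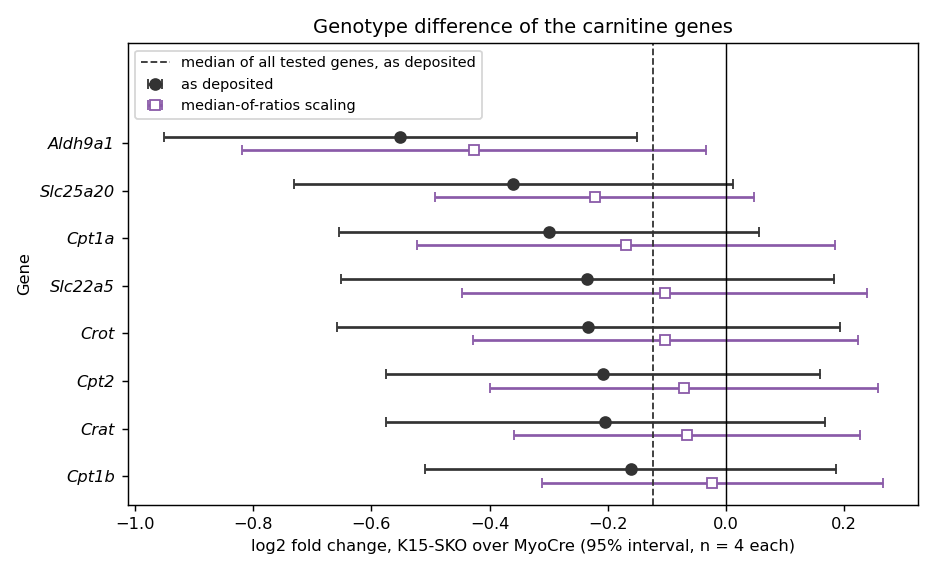
Log2 fold changes of the 8 carnitine genes, K15-SKO over MyoCre, with 95% moderated intervals (n = 4 each), from the deposited values (filled circles) and after median-of-ratios scaling (open squares); the dashed line is the median of all tested genes, -0.12. All points lie left of 0, and with either scaling Aldh9a1 alone has an interval that does not reach 0.

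Promoter sequences are shown for the members whose groups separated under the deposited or the median-of-ratios scaling, none of them under both. In Aldh9a1 and Cpt1a all K15-SKO libraries lay below all MyoCre libraries under the deposited scaling, a separation found there in 2.72% of tested genes. In Slc25a20 they did so under median-of-ratios scaling, a separation found there in 1.52% of tested genes. The stretches shown are RefSeq sequences of GRCm38.p6 on the plus strand, 5′ to 3′. Each begins 250 bases before the gene's RefSeq start and stops there or at the first GENCODE exon inside that window, so 250 bases are shown for Aldh9a1, 234 for Cpt1a and 202 for Slc25a20. The Cpt1a stretch lies inside the GENCODE gene, whose earliest annotated start is further upstream. Capitals mark the GC box CCGCCC and the CACC box CACCC on either strand, the kinds of sequence that Kruppel-like factors are known to bind; matches can overlap at their ends. The Aldh9a1 stretch is chr1:167349741-167349990, that of Cpt1a chr19:3323051-3323284 and that of Slc25a20 chr9:108661886-108662087.
Aldh9a1: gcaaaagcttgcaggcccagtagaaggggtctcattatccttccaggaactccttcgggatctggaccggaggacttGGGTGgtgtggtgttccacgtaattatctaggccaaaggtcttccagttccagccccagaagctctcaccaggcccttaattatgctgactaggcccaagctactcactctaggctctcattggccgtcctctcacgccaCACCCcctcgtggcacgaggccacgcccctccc
Cpt1a: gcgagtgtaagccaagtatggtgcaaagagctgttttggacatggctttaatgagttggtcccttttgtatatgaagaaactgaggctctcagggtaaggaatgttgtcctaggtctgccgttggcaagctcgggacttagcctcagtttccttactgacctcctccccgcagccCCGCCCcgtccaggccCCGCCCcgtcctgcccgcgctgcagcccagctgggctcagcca
Slc25a20: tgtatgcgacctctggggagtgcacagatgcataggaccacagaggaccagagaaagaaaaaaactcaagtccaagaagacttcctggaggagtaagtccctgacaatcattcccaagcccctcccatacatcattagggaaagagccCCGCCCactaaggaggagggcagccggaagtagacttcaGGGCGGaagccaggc
The stretches as printed hold 0 GC boxes in Aldh9a1, 2 in Cpt1a and 2 in Slc25a20, and 2, 0 and 0 CACC boxes in the same order. In the full 250 bases before the RefSeq start, part of which is not printed for Cpt1a and Slc25a20, GC boxes numbered 0 in Aldh9a1, 2 in Cpt1a and 3 in Slc25a20, and 32.7% of the 32851 promoters in the same table held at least 1. CACC boxes in those 250 bases numbered 2 in Aldh9a1, 1 in Cpt1a and 0 in Slc25a20, and 52.0% of promoters held at least 1. Promoters were found for 6 of the 9 genes, and Cpt2, Crot and Slc22a5 held 2, 2 and 3 GC boxes and 0, 2 and 1 CACC boxes. These matches describe the letters in a window that a large share of all promoters also hold, and binding of KLF15 was not measured.

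Among the synthesis genes, Aldh9a1 showed the widest difference of the 8. It had 2.61, 3.74, 3.39 and 3.82 FPKM in K15-SKO replicates 1 to 4, against 4.92, 4.15, 6.29 and 5.46 FPKM in MyoCre replicates 1 to 4. All K15-SKO values lay below all MyoCre values, by a narrow gap between K15-SKO replicate 4 and MyoCre replicate 2. The K15-SKO mean was 65.1% of the MyoCre mean, and the log2 fold change was -0.55 (SE 0.19, limma unadjusted p = 0.0107, adjusted p = 0.695), or -0.43 relative to the median of all genes. Its 95% interval ran from -0.95 to -0.15, and an unadjusted p under 0.05 was found in this direction in 3.43% of all tested genes and in the other in 0.901%. The log2 fold change was -0.56 without K15-SKO replicate 3 (adjusted p = 0.766) and -0.64 without the male library (adjusted p = 0.589). With library weights it passed the threshold (log2 fold change -0.70, adjusted p = 0.0452), a fit in which 0.806% of genes were called lower. After median-of-ratios scaling the genotypes overlapped, at 2.55 to 4.27 in K15-SKO and 3.92 to 5.62 in MyoCre muscle. Aldh9a1 (ENSMUSG00000026687.14, mm10 chromosome 1, plus strand, 167349991 to 167368532) rested on an estimated 73.9 to 267 fragments per library, so counting error alone would give a coefficient of variation of 6.12% to 11.6%, against 16.3% seen among K15-SKO and 17.3% among MyoCre libraries. Another synthesis enzyme, Bbox1, which makes carnitine from gamma-butyrobetaine and is known from liver and kidney, had 0 to 0.117 FPKM in K15-SKO and 0.0299 to 0.172 FPKM in MyoCre muscle, below the filter.

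The 2 isoforms of the entry step differed in level and in the spread of their libraries. Cpt1a had 5.57, 7.13, 7.18 and 5.75 FPKM in K15-SKO replicates 1 to 4, against 7.96, 7.67, 8.17 and 8.01 FPKM in MyoCre replicates 1 to 4. The MyoCre libraries lay close together and all 4 K15-SKO libraries lay below them. Groups that separate downward in this way were found in 2 of the 8 carnitine genes and in 2.72% of all tested genes, and upward in 0 of the 8 and in 0.63% of all. Cpt1a had a log2 fold change of -0.30 with an SE of 0.16 (limma adjusted p = 0.957), of -0.35 without K15-SKO replicate 3 and of -0.32 without the male library. After median-of-ratios scaling K15-SKO replicate 3 became the highest of all 8 libraries for Cpt1a, with 9.03, and the genotypes overlapped. Cpt1b had 206.9, 211.9, 210.2 and 200.5 FPKM in K15-SKO replicates 1 to 4, against 231.8, 232.8, 267.6 and 200.3 FPKM in MyoCre replicates 1 to 4. MyoCre replicate 4 was the lowest of all 8, so the genotypes overlapped, and the log2 fold change of -0.16 (SE 0.16, limma adjusted p = 0.957) lay 0.04 below the median of all genes and was -0.09 without MyoCre replicate 3. The 95% interval of Cpt1b, 0.70 to 1.14 as a fold on the log2(FPKM + 0.5) scale, does not reach a halving. Cpt1b (ENSMUSG00000078937.8) spans 89416405 to 89425863 of chromosome 15, minus strand, and Cpt1a (ENSMUSG00000024900.4) spans 3322334 to 3385733 of chromosome 19, plus strand. All 9459 bases of Cpt1b are also covered by a predicted gene model on the same strand, Gm44502, and how reads there were assigned is not given in the labels or the header. Cpt1c, the isoform of brain, averaged 0.68 ± 0.18 FPKM in K15-SKO and 1.03 ± 0.50 FPKM in MyoCre muscle (SD, n = 4 each), below the filter.

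Slc25a20 (ENSMUSG00000032602.6, chromosome 9, plus strand, 108662088 to 108684641), the carnitine-acylcarnitine translocase, had the second widest difference in this fit. It had 54.7, 72.2, 54.1 and 60.1 FPKM in K15-SKO replicates 1 to 4, against 69.8, 78.8, 88.0 and 72.3 FPKM in MyoCre replicates 1 to 4. K15-SKO replicate 2 exceeded MyoCre replicate 1, and the other 3 K15-SKO libraries lay below every MyoCre library. This gave a log2 fold change of -0.36 with an SE of 0.17 (limma unadjusted p = 0.0562, adjusted p = 0.957), -0.31 without K15-SKO replicate 3 and -0.35 without the male library. After median-of-ratios scaling it was -0.22 (SE 0.12), and the genotypes no longer overlapped, at 53.4 to 68.0 in K15-SKO and 68.3 to 76.3 in MyoCre muscle, a separation found in 1.52% of tested genes (upward in 1.45%). Under that scaling the other 7 carnitine genes overlapped. Cpt2 (ENSMUSG00000028607.16, chromosome 4, minus strand, 107903981 to 107923610), the inner-membrane transferase, had 35.9, 40.5, 40.7 and 38.8 FPKM in K15-SKO replicates 1 to 4, against 43.9, 39.0, 55.3 and 43.4 FPKM in MyoCre replicates 1 to 4. The genotypes overlapped through MyoCre replicate 2, with a log2 fold change of -0.21 and an SE of 0.17 (limma adjusted p = 0.957), or -0.11 without MyoCre replicate 3.

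The remaining 3 genes handle acyl groups outside the long-chain shuttle or carnitine at the cell surface. Crat had 120.3, 128.4, 115.4 and 108.5 FPKM in K15-SKO replicates 1 to 4, against 133.1, 153.7, 152.6 and 109.3 FPKM in MyoCre replicates 1 to 4, with a log2 fold change of -0.20 (SE 0.17, limma adjusted p = 0.957), or -0.31 without MyoCre replicate 4. The genotypes overlapped, since MyoCre replicate 4 lay below 3 K15-SKO libraries. Crat (ENSMUSG00000026853.15, chromosome 2, minus strand, 30400471 to 30415813) shares 59 bases with Dolpp1 and 1623 with the antisense Gm16323 on the other strand, and Gm16323 was at 0 in all K15-SKO libraries and at 0 to 0.227 FPKM in MyoCre libraries. Crot (ENSMUSG00000003623.4, chromosome 5, minus strand, 8966033 to 8997324) had 8.20, 9.89, 5.75 and 9.55 FPKM in K15-SKO replicates 1 to 4, against 8.75, 8.74, 10.8 and 10.7 FPKM in MyoCre replicates 1 to 4. Its K15-SKO libraries spread the widest of the 8 genes, at a coefficient of variation of 22.5%, with replicate 3 lowest. The log2 fold change of Crot was -0.23 (SE 0.20, limma adjusted p = 0.957) with all libraries and -0.07 without K15-SKO replicate 3, where the median of all genes was -0.04. Slc22a5 (ENSMUSG00000018900.7, chromosome 11, minus strand, 53864542 to 53891660) had 8.43, 8.64, 6.23 and 8.17 FPKM in K15-SKO replicates 1 to 4, against 8.15, 7.37, 11.3 and 10.9 FPKM in MyoCre replicates 1 to 4. MyoCre replicates 3 and 4 stood above all other libraries for Slc22a5 and the genotypes overlapped, with a log2 fold change of -0.23 (SE 0.19, limma adjusted p = 0.957), or -0.13 without K15-SKO replicate 3 and -0.14 without MyoCre replicate 3. The other organic cation transporter that was tested, Slc22a4, measured 2.17 ± 0.35 and 2.32 ± 0.47 FPKM in K15-SKO and MyoCre muscle (SD, n = 4 each; limma adjusted p = 0.964). Shmt2, a mitochondrial serine hydroxymethyltransferase counted with these genes, had a log2 fold change of -0.17.

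Ratios between 2 genes of the same library do not depend on how the libraries were scaled, and 4 of them were compared by two-sided exact permutation tests over the 70 assignments, which allow no p below 0.0286. Cpt1a stood at 2.69%, 3.37%, 3.42% and 2.87% of Cpt1b in K15-SKO replicates 1 to 4, against 3.43%, 3.30%, 3.05% and 4.00% in MyoCre replicates 1 to 4. The genotypes overlapped, and the mean log2 ratio was 0.16 lower in K15-SKO (difference -0.16, exact p = 0.229, Benjamini-Hochberg adjusted p = 0.457 over the 4 ratios). Without MyoCre replicate 4 this difference was -0.09, and without K15-SKO replicate 1 it was -0.10. Slc25a20 stood at 26.4%, 34.1%, 25.7% and 30.0% of Cpt1b in K15-SKO replicates 1 to 4, against 30.1%, 33.9%, 32.9% and 36.1% in MyoCre replicates 1 to 4, a difference of -0.20 on the log2 scale (exact p = 0.171, adjusted p = 0.457). Cpt2 stood at 18.8% ± 0.97 of Cpt1b in K15-SKO and 19.5% ± 2.15 in MyoCre muscle (SD, n = 4 each), a log2 difference of -0.05 (exact p = 0.629, adjusted p = 0.838). Crat exceeded Cpt2 with a log2 ratio of 1.60 ± 0.13 in K15-SKO and 1.59 ± 0.28 in MyoCre muscle (SD, n = 4 each), a difference of 0.01 (exact p = 0.971, adjusted p = 0.971). None of the 4 ratios passed, which does not show that they were equal: without 1 library, Slc25a20 to Cpt1b ranged from -0.28 to -0.15.

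**Figure D3:**
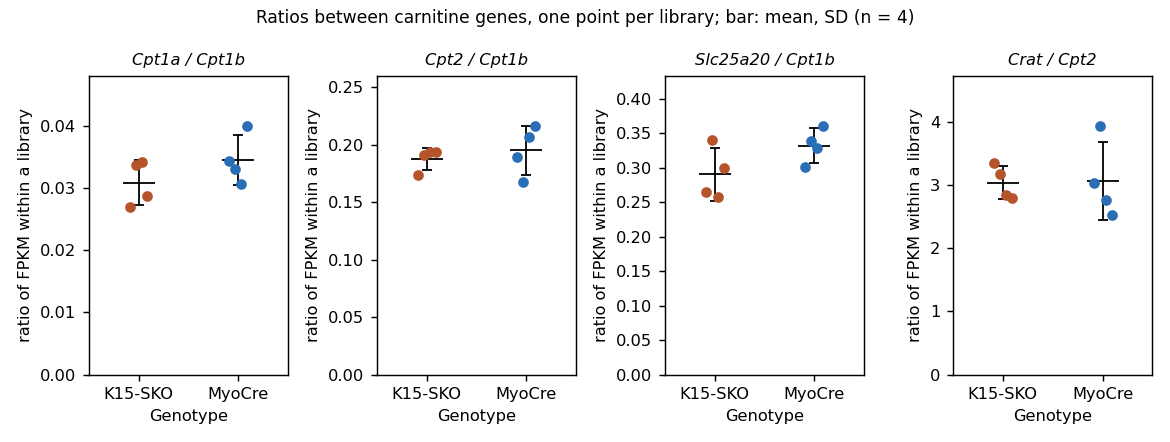
Ratio of FPKM between pairs of carnitine genes within each library, one point per library with K15-SKO left of MyoCre; bars show the mean and the SD (n = 4). The genotypes overlap in all 4 ratios, and Cpt1a lies between 2.69% and 4.00% of Cpt1b.

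The neighbouring steps of fatty acid oxidation held a few larger differences. List medians from here on are from the deposited values, where the median of all tested genes was -0.12. Of the 6 other carnitine genes tested, 1 was lower and 0 were higher. It is Slc25a29, first described as a carnitine-acylcarnitine carrier of mitochondria and now known for carrying basic amino acids, which averaged 1.64 ± 0.48 FPKM in K15-SKO and 3.67 ± 0.36 FPKM in MyoCre muscle (SD, n = 4 each; log2 fold change -0.99, SE 0.19, limma adjusted p = 0.0355). Of 5 genes that set malonyl-CoA, the inhibitor of the entry step, 0 were lower and 0 higher, with a list median of -0.05. Mlycd, which destroys malonyl-CoA, measured 57.0 ± 13.2 FPKM in K15-SKO and 74.2 ± 7.39 FPKM in MyoCre muscle (limma adjusted p = 0.957), and Acaca, the acetyl-CoA carboxylase of the cytosol, 2.86 ± 0.50 and 3.37 ± 0.69 FPKM in K15-SKO and MyoCre muscle. Acacb, the other acetyl-CoA carboxylase of that list, lay far above Acaca, at 39.4 ± 2.09 and 41.3 ± 7.63 FPKM in K15-SKO and MyoCre muscle (log2 fold change -0.05). Thrsp, a lipogenic protein, had a log2 fold change of 0.13. Of 8 genes that make or bind acyl-CoA, the substrate of the shuttle, 0 were lower and 0 higher (median -0.30). Acsl1, the main long-chain acyl-CoA synthetase of muscle, measured 187.6 ± 26.3 FPKM in K15-SKO and 245.5 ± 38.1 FPKM in MyoCre muscle, and Acsl3 and Acsl4 had log2 fold changes of -0.34 and -0.40 (limma adjusted p = 0.957 for all 3).

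Downstream of the shuttle, 0 of 15 mitochondrial beta-oxidation genes were lower and 0 higher, all 15 log2 fold changes were negative, and their median was -0.33. Of all tested genes, 77.0% had a negative log2 fold change. After median-of-ratios scaling the median of this list was -0.19, where that of all genes was 0.00. Echs1, the enoyl-CoA hydratase, measured 63.0 ± 14.3 FPKM in K15-SKO and 109.1 ± 17.9 FPKM in MyoCre muscle (log2 fold change -0.80, limma adjusted p = 0.207), and the thiolase Acaa2 and the electron carrier subunit Etfa had log2 fold changes of -0.49 and -0.51. In the peroxisome, where Crot prepares shortened chains for export, the bifunctional enzyme Ehhadh averaged 2.29 ± 0.53 FPKM in K15-SKO and 5.88 ± 1.84 FPKM in MyoCre muscle (limma adjusted p = 0.0613), and the sterol carrier Scp2 had a log2 fold change of -0.31. Of 8 PPAR target genes of muscle, 1 was lower and 0 higher (median -0.27): Acot1, a cytosolic acyl-CoA thioesterase, with 1.56 ± 0.85 FPKM in K15-SKO and 7.42 ± 1.71 FPKM in MyoCre muscle (log2 fold change -2.04, limma adjusted p = 0.0106). Pdk4 and Plin2 of that list had log2 fold changes of -0.36 and -0.46. Acot1 did not pass without K15-SKO replicate 4 or MyoCre replicate 3, nor with median-of-ratios scaling (adjusted p = 0.0835). Slc25a29 passed only without K15-SKO replicate 1 or 2 among the fits that left out 1 library. It passed with median-of-ratios scaling (limma adjusted p = 0.0354) but not without robust estimation. In a fit without the genes at 0 throughout 1 genotype, Acot1 (adjusted p = 0.0427) passed and Slc25a29 did not.

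**Figure D4:**
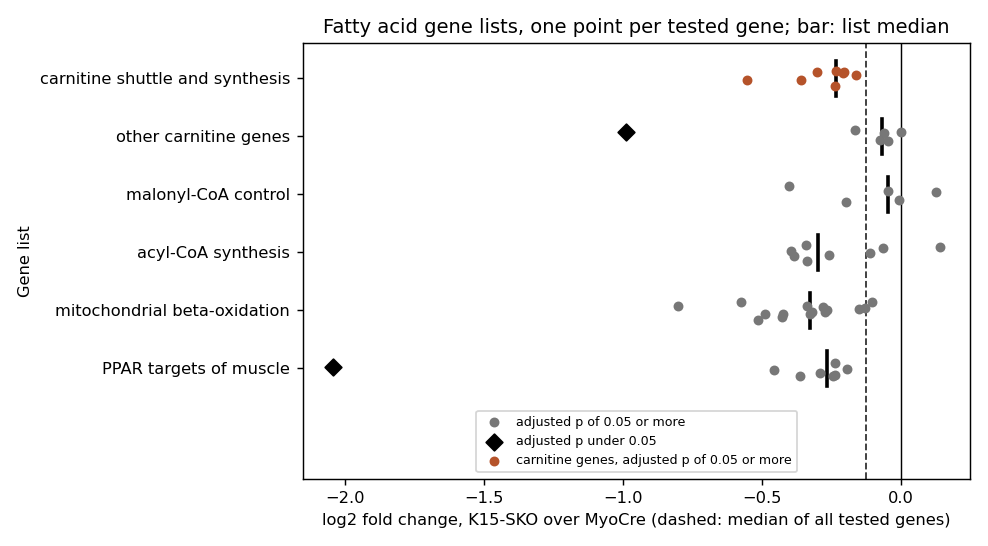
Log2 fold change, K15-SKO over MyoCre, of each tested gene in the carnitine list and in 5 neighbouring lists; black bars are list medians, diamonds mark limma adjusted p under 0.05, and the dashed line is the median of all tested genes. None of the carnitine genes is past the threshold, and the 2 diamonds are Slc25a29 and Acot1.

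Markers of the cell types in a soleus sample were summed in each library, because Cpt1a is also expressed outside muscle fibres. In bulk samples, fewer cells of a type and less RNA per cell cannot be told apart. Slow myofibre markers summed to 10119 to 19242 FPKM in K15-SKO and 10259 to 18093 FPKM in MyoCre muscle, with 0 of 7 past the threshold, a median of -0.11, and Tnnc1 and Myl3 at log2 fold changes of -0.26 and -0.14. Fast myofibre markers summed to 4013 to 11517 FPKM and 3624 to 10011 FPKM in K15-SKO and MyoCre muscle, with 1 of 8 past the threshold and a median of 0.05. It was Myh2, which had 738.1 to 2095 FPKM in K15-SKO libraries and was listed at 0 in all MyoCre libraries (limma adjusted p = 4.38e-12). Myh2 is thus one of the 46 genes called higher, all of which were listed at 0 in all MyoCre libraries. Whether such zeros come from the muscle or from the making of the values was not tested. The fast marker sums of K15-SKO libraries include Myh2 and those of MyoCre libraries do not, so these sums are not like for like. Myh1, Tnni2 and Tnnt3 had log2 fold changes of -0.16, -0.06 and -0.18 (Tnni2 0.08 with median-of-ratios scaling), and Myh4 and Actn3 had log2 fold changes of 2.23 and 0.67 (limma adjusted p = 0.957 for both). Adipocyte markers summed to 254.1 to 498.1 FPKM in K15-SKO and 259.8 to 346.5 FPKM in MyoCre muscle, with 0 of 6 past the threshold and a median of -0.41. Plin1, Cfd and Adipoq had log2 fold changes of -0.65, -0.76 and -0.58. Fabp4, a fatty acid binding protein that capillary endothelium also expresses, made up most of these sums, with 311.5 ± 101.3 FPKM in K15-SKO and 264.0 ± 39.3 FPKM in MyoCre muscle (SD, n = 4 each; log2 fold change 0.20). Endothelial markers summed to 116.5 to 147.7 FPKM in K15-SKO and 89.5 to 125.1 FPKM in MyoCre muscle, with 0 of 7 past the threshold and a median of 0.18, and Cdh5, Tie1 and Vwf at 0.43, 0.31 and 0.41. These were the highest of the 7, and Kdr and Tek were at 0.00 and -0.10. K15-SKO replicate 3 held the highest adipocyte and endothelial sums. Fabp4 made up 458.0 of the 498.1 FPKM of its adipocyte sum, which therefore says little of the other adipocyte markers. No adipocyte or endothelial marker was at 0 in all libraries, and their part in the Cpt1a values was not tested.

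Other marker lists had 0 members past the threshold. Fibroblast and matrix markers had a median log2 fold change of -0.38 over 7 genes and sums of 405.8 to 713.5 FPKM in K15-SKO and 558.5 to 958.4 FPKM in MyoCre muscle, with Col1a2, Dcn and Mfap5 at -0.57, -0.38 and -0.52. Tendon markers had a median of -0.46 over 6 genes and sums of 113.3 to 221.0 FPKM in K15-SKO and 139.0 to 272.1 FPKM in MyoCre muscle, with Kera, Tnmd and Thbs4 at -1.12, -0.68 and -0.53. Macrophage and leukocyte markers had a median of -0.33 over 6 genes and sums of 25.5 to 55.7 FPKM in K15-SKO and 48.9 to 61.3 FPKM in MyoCre muscle, with Adgre1, Csf1r and Lyz2 at -0.42, -0.42 and -0.37. Schwann cell markers had a median of -0.18 over 5 genes and sums of 46.2 to 63.3 FPKM in K15-SKO and 55.5 to 61.4 FPKM in MyoCre muscle, with Mbp at -0.18. Erythroid markers had a median of 0.80 over 5 genes and sums of 320.3 to 2034 FPKM in K15-SKO and 284.0 to 458.9 FPKM in MyoCre muscle. K15-SKO replicate 3 held the sum of 2034 FPKM, and Hba-a2, Hbb-bs and Alas2 had log2 fold changes of 0.82, 0.74 and 0.80.

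Median-of-ratios-scaled log2 values of the 8 libraries were compared after the genotype mean was taken off. From these values the genes that followed Cpt1b, Cpt2 and Slc25a20 most closely were found. For Cpt1b they were Nudt16l1, Sharpin and Srebf2 with Pearson correlations of 0.994, 0.993 and 0.993. For Cpt2 they were Tmem41a, Pqlc1 and Wdr6 with 0.990, 0.979 and 0.969, and for Slc25a20 they were Zfp623, Hoga1 and C1ra with 0.960, 0.953 and 0.951. These values describe the 8 libraries, which share their scaling, and were the highest among all tested genes, so they carry no test.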

How the data were processed

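RNA was measured in 8 soleus libraries, 4 K15-SKO and 4 MyoCre, assigned to genotype and replicate by their labels. The deposited table is taken to hold FPKM made by the authors; per the submitters' processing notes the tools were STAR, Cufflinks and Cuffdiff and the build mm10. The unit was inferred, since the header gives sample names only. Strand setting, annotation release, tool versions and scaling between libraries: not given in the sources used here. Reads of genes that overlap, also in antisense, may therefore be mixed. The table holds 0 further columns of values.

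Depth is not given with FPKM. The commonest low value of FPKM times length, in single-transcript genes over 1 kb, was taken as 1 fragment, which is a rough estimate, and no counts were recovered. Coordinates are from GENCODE M21, on the same build as mm10.

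Values were tested as log2(FPKM + 0.5) with limma 3.58.1 in R 4.3.3, with a mean trend and robust variances, genotype alone in the model, over the 12535 genes that averaged 1 FPKM or more. Tests were two-sided, with Benjamini-Hochberg adjustment over all genes and a threshold of 0.05; fold changes on this scale understate those of low genes. The fit was tested on simulated data with known changes, all larger than those of the carnitine genes and without scaling shifts between libraries. Its behaviour at smaller changes was not tested. The protocol gives 4 mice; p-values measure the spread between these samples. The carnitine genes and the lists were chosen with earlier results of these data known. Genes named are the 9 carnitine genes, Klf15, the 3 smallest p-values of each other list and the 3 closest genes to Cpt1b, Cpt2 and Slc25a20 (predicted genes and those at 0 throughout 1 genotype left out). Some genes that this rule names are not reported here. Bbox1, Cpt1c, Gm44502, Dolpp1, Gm16323, Fabp4, Myh1, Tnni2, Tnnt3, Acacb, Kdr and Tek fall outside this rule and were named after their values were seen.

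Alternatives were pseudocounts of 1 and 0.1, no filter or a mean of at least 5 FPKM, scaling by quantiles, upper quartile or median of ratios, library weights, variances without robust estimation, a replicate block, the genes at 0 throughout 1 genotype left out (alone and with median-of-ratios scaling), and each library left out. Ratios were recomputed with a pseudocount of 0.5, in pairs and with each library left out.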

Additional observations from a re-analysis of the deposited data

Results flagged for a closer look

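Of 26 groups of 4 values examined (the 8 carnitine genes and Klf15 in each genotype, and the 4 ratios), 1 held a library far from the other 3, where chance at about 1 in 20 gives 1.3. It was the ratio of Cpt2 to Cpt1b in K15-SKO replicate 1, 0.173, against 0.191 for the nearest of the other 3 K15-SKO libraries. The gap filled 0.871 of the range of the group.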

How the results depend on the processing

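All 159 alternative log2 fold changes of the 8 carnitine genes were negative, and 158 stayed on the same side of the threshold; Aldh9a1 was below 5 FPKM on average and has no value under that filter. The count of carnitine genes past the threshold was 0 in 19 of 20 alternatives and 1 with library weights (Aldh9a1).

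The 23 genes lower in K15-SKO over the whole table became 14 with scaling by quantiles, upper quartile or median of ratios, 15 without robust estimation, 101 with library weights, 12 without the genes at 0 throughout 1 genotype and 3 with median-of-ratios scaling added. They ranged from 8 to 28 with a library left out, being 8 without MyoCre replicate 3, 13 without K15-SKO replicate 1 and 14 without MyoCre replicate 1. The 46 higher became 22 with a minimum mean of 5 FPKM and 0 in both fits without the genes listed at 0, which is what leaving those genes out does, and ranged from 45 to 54 with a library left out. Members of the other lists past the threshold, 4 in all, became 2 with no filter, the minimum of 5 FPKM or any of the 3 scalings. They were also 2 without robust estimation or with the replicate block. Without the genes listed at 0 they were 1, and 0 with median-of-ratios scaling added. They ranged from 1 to 4 with a library left out. With library weights they were 6, among them Echs1 and Ehhadh (limma adjusted p = 0.0452 and 0.0159). Ehhadh also passed without MyoCre replicate 2 (limma adjusted p = 0.00206). Some of these fits held fewer genes or samples, while others used the same genes and libraries. Beyond the leaving out of the genes listed at 0, what moved the counts was not tested.

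With a library left out, the log2 difference of the Cpt2 to Cpt1b ratio ranged from -0.119 to 0.00399 and that of Crat to Cpt2 from -0.0815 to 0.133, so their direction is not set by these data. Same-numbered libraries of the genotypes had correlations of 0.0022 to 0.28, and 2 of 4 K15-SKO libraries correlated best with their own number, so the numbers were not taken as pairs. With the replicate block 32 genes were lower, and the lowest adjusted p of a carnitine gene, that of Aldh9a1, was 0.501. The depth limits Aldh9a1 most, with an estimated 73.9 fragments in K15-SKO replicate 1, its lowest.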
